A study of Mus musculus with 4 samples.

Results

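The enzymes of fatty acid oxidation and their acyl-CoA relatives were examined in the fasted liver of mice with a changed copy of Cnot3, a subunit of the CCR4-NOT complex that shortens mRNA poly(A) tails. The members were all probe sets annotated with a single gene symbol of the Acad, Acox, Acot, Acaa, Acsl, Acsm, Cpt1, Cpt2, Hadh, Ech, Eci or Decr families, or of Ehhadh, Etfa, Etfb, Etfdh, Crat, Crot or Slc27a2. This gave 95 of 45101 probe sets, which read 59 of the 18194 genes named on the arrays by a probe set of 1 symbol. Total liver RNA of 4 male C57BL/6J mice, 12 weeks old, was hybridised to one-colour Affymetrix arrays. Of these, 2 mice were Cnot3+/- and 2 were wild-type. All 4 were kept on normal chow, housed singly and left without food for 24 h before sampling, so no fed state stands beside the fasted one. The labels call the mice heterozygotes and do not describe the allele, and name the 2 livers of a genotype as biological replicates, so p-values measure the spread between these few mice.

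Fatty acids enter oxidation as acyl-CoA esters, which synthetases make and thioesterases split again. Long-chain esters cross into mitochondria as carnitine esters, and the chain is then shortened there by a repeated cycle of dehydrogenation, hydration, dehydrogenation and thiolysis. Peroxisomes run a related cycle on very long and branched chains, starting with acyl-CoA oxidases instead of dehydrogenases. In fasting liver this machinery supplies acetyl-CoA for ketone bodies, and the nuclear receptor PPARalpha raises many of its genes.

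Each array gave 45101 log2 expression values, and the array medians lay between 4.62 and 4.66. Of the 95 member probe sets, 84 passed the filter on dim probe sets, and 57 of the 59 genes were tested through 1 probe set each among 13379 genes. The genes not tested, Acot5 and Eci3, lay below the filter. Acsl1 and Cpt1b were not analysed here. Hepatocyte markers such as Alb and Apoa1 were bright on all 4 arrays, with Alb between 14.80 and 14.87. Cnot3 itself read 7.70 and 7.86 in Cnot3+/- against 7.48 and 8.14 in the wild-type livers, a difference of -0.03 (SE 0.25). Where its probes lie relative to the altered sequence is not stated, so each direction below rests on the genotype that the labels give. The arrays labelled Cnot3+/- lay further apart than the wild-type ones, with 432 genes at least 2-fold apart against 74.

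No gene of fatty acid oxidation or acyl-CoA metabolism passed the test between the genotypes. In limma, 0 of 57 member genes had an adjusted p below 0.05, where 0.0149% of all genes tested passed, and the smallest adjusted p among the members was 0.999. At an unadjusted p under 0.05 there was 1 member, the medium-chain synthetase gene Acsm2, against 3.59% of all genes. Of the 57 members, 23 had values above wild-type and 34 below it, against 47.9% of all genes above and 52.1% below. A gene's log2 difference, its Cnot3+/- mean minus its wild-type mean, had a median of -0.03 over the members and -0.01 over all genes tested. It exceeded 0.5 in size for 2 members, Acot3 and Acot9, against 4.47% of all genes. Each value comes from whole liver, where fewer cells of a type and less RNA per cell cannot be told apart.

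The intervals bounded the difference in array values for most of these genes. For 52 of the 57 members the 95% confidence interval of the difference lay within 1 of 0 on the log2 scale. This leaves out a 2-fold change of the array value either way. The same held for 92.0% of all genes. For 28 members the interval lay within 0.5 of 0, against 38.7% of all genes. The 5 members with wider intervals were the thioesterase genes Acot1, Acot2, Acot3 and Acot9 and the synthetase gene Acsm3. The intervals are not adjusted for the number of genes, and 2 arrays a genotype limit the precision. RMA shrinks differences of dim probe sets. For members near the array medians, such as Acsm2, Acsl6 and Cpt1c, the interval therefore does not leave out a 2-fold change of the RNA. The count of members at an unadjusted p under 0.05 was 3 without Cnot3+/- 1 (7.40% of all genes), 4 without Cnot3+/- 2 (4.51%), 1 without wild-type 1 (1.48%) and 5 without wild-type 2 (4.82%).

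**Figure D1:**
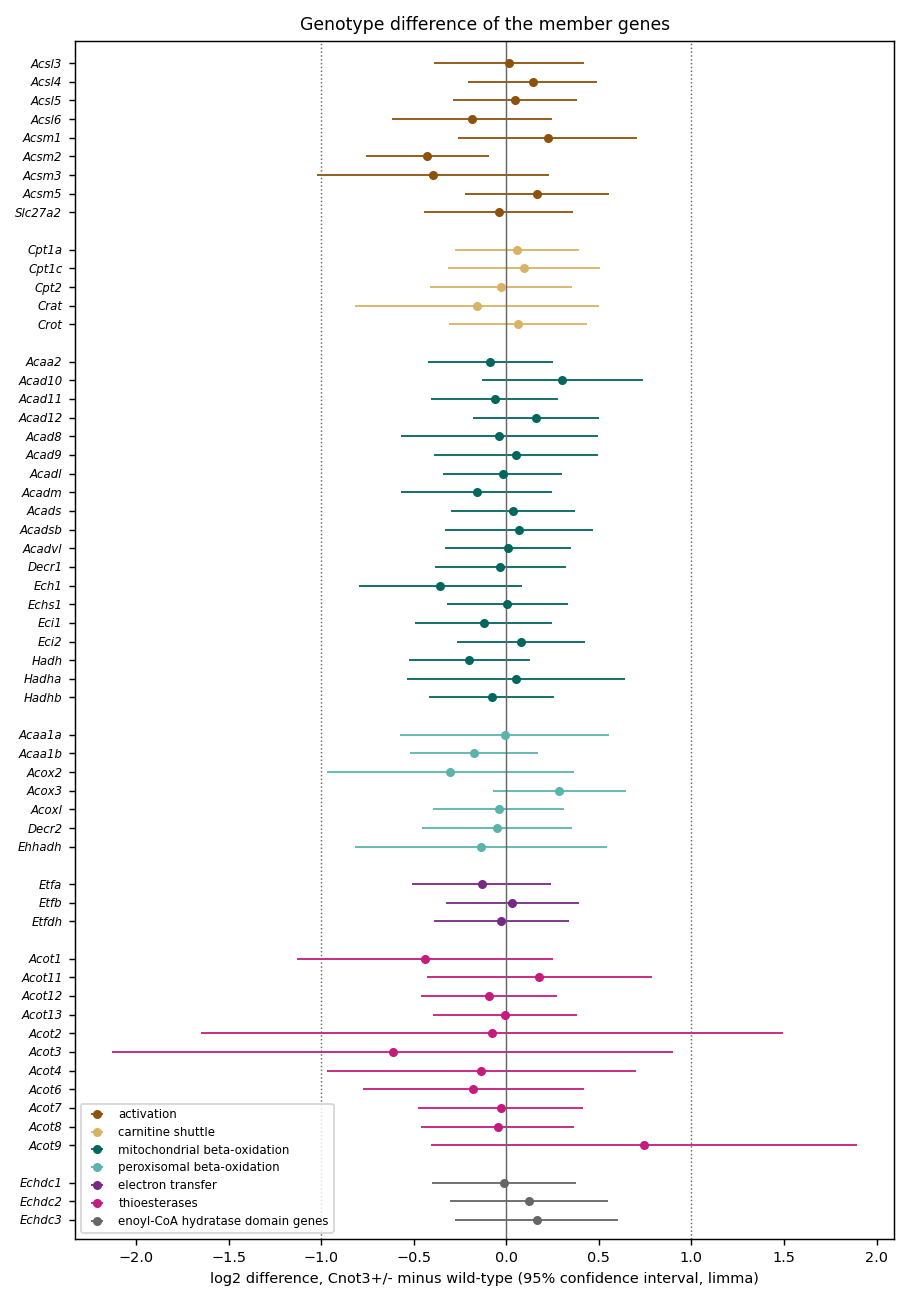
Difference between Cnot3+/- and wild-type for the 57 member genes tested, in log2 units with the 95% confidence interval from limma, grouped and coloured by role. The dotted lines mark 2-fold changes; 52 intervals lie between them, and Acsm2 is the gene whose interval leaves out 0.

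The arrays of the 2 genotypes overlapped for most members. They were fully separated for 9 of 57 genes, or 15.8%, against 31.5% of all genes tested. Of these, 4 were higher in Cnot3+/-, where the background was 14.1%, and 5 were lower, where it was 17.4%. The difference exceeded the larger gap between mice of the same genotype in 6 members, or 10.5%, against 20.2% of all genes. These 6 were Acaa1b, Acad12, Acadl, Acox3, Acsm2 and Hadh. On single probe sets 0 of 84 passed the adjusted test, where 0.00739% of all 27060 did. There 15 of 84 had separated groups, against 31.0% of all probe sets, with 6 of them higher (14.5% of all) and 9 lower (16.5% of all). The median absolute difference was 0.09 over the members and 0.12 over all genes tested.

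**Figure D2:**
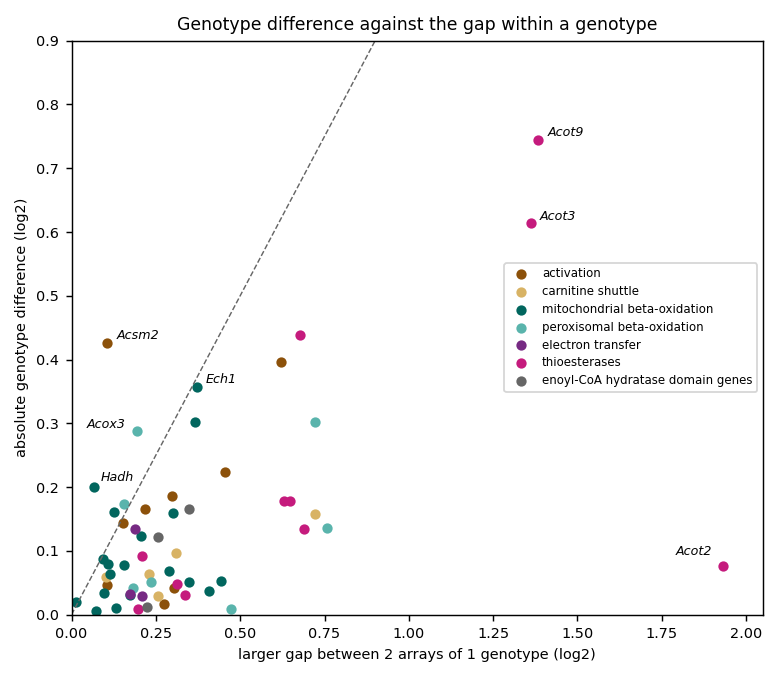
Absolute genotype difference of each member gene against its larger gap between 2 arrays of the same genotype, both in log2 units and coloured by role. Points above the dashed line of equality, 6 of 57, differ more between the genotypes than within one; Acot2, Acot3 and Acot9 lie far to the right.

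The array labelled Cnot3+/- 1 was the lowest of the 4 for 21 members, or 36.8%, against 25.0% of all genes. Wild-type 1 was the highest for 23 members, or 40.4%, against 29.6% of all genes. Averaged over the members and set against the wild-type mean, Cnot3+/- 1 was at -0.08, Cnot3+/- 2 at 0.02, wild-type 1 at 0.02 and wild-type 2 at -0.02. Without the thioesterases, Cnot3+/- 1 and Cnot3+/- 2 both lay within 0.03 of the wild-type mean, at -0.02 and -0.03. The low mean of Cnot3+/- 1 thus came largely with the thioesterase values, at -0.34 on that array, which are given further on. Other roles lay on both sides there. Peroxisomal genes averaged -0.11, carnitine shuttle genes -0.08, genes of the mitochondrial cycle -0.02 and electron transfer genes -0.003. Activation genes averaged 0.01 and genes with an enoyl-CoA hydratase domain 0.12.

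**Figure D3:**
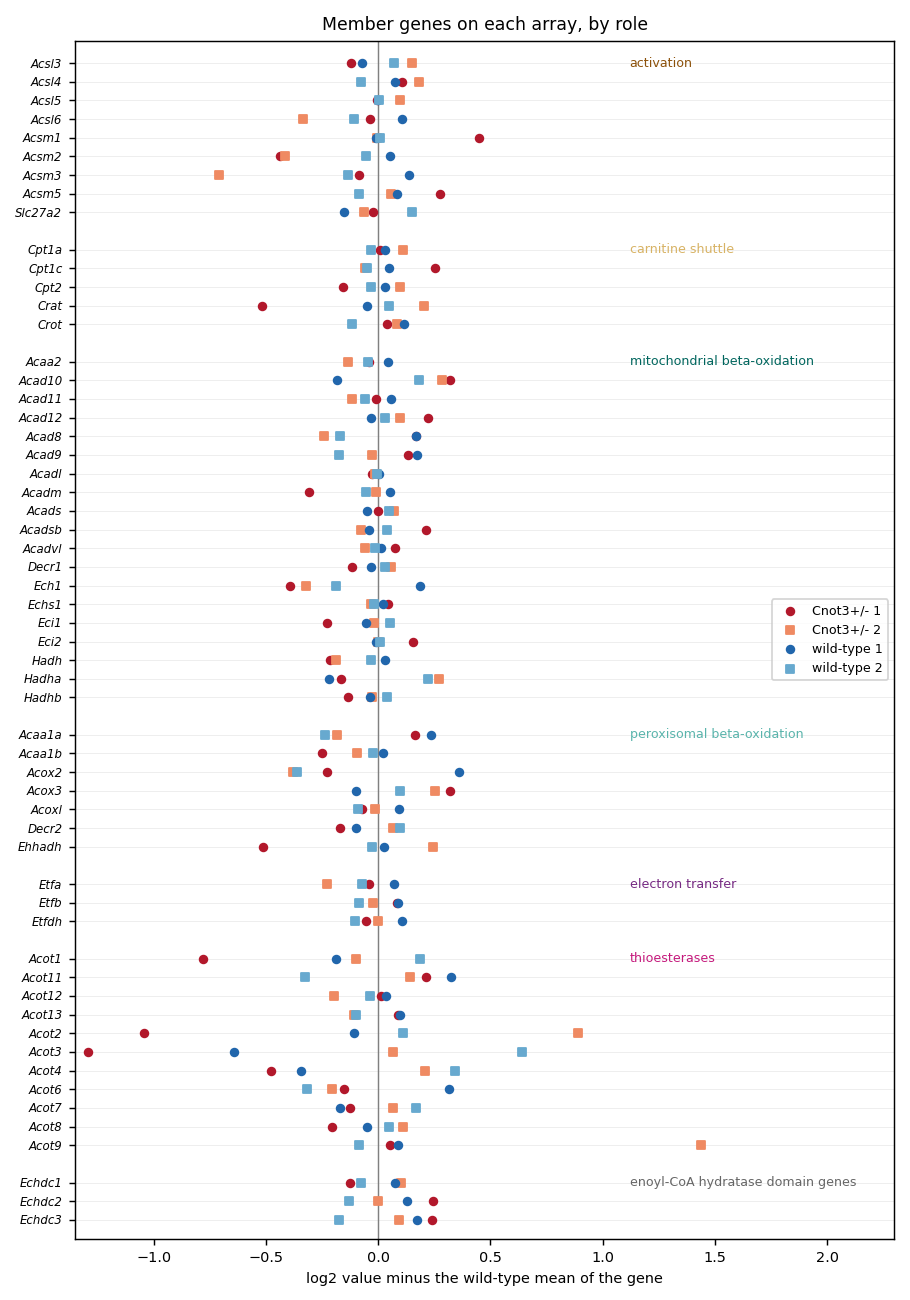
Log2 value of each member gene on each array, minus its wild-type mean, by role. Most points lie within 0.5 of 0; Acot1 to Acot4 are low on Cnot3+/- 1 and Acot9 is high on Cnot3+/- 2, at 6.94 against 5.56 on Cnot3+/- 1.

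Genes of fatty acid activation lay on both sides of wild-type, with 5 of 9 higher and 4 lower; their median difference was 0.02. Acsl5, a long-chain synthetase gene of liver and intestine, read 11.17 and 11.27 in Cnot3+/- against 11.17 and 11.17 in the wild-type livers, a difference of 0.05 (SE 0.13). Slc27a2, which encodes a fatty acid transporter that also activates very long chains, read 13.24 and 13.20 in Cnot3+/- against 13.11 and 13.41 in the wild-type livers (difference -0.04, SE 0.16). For Slc27a2 both Cnot3+/- mice lay between the wild-type mice, and for Acsl5 they lay on either side of them. Acsl3 differed by 0.02 (SE 0.16). Acsl4, which favours arachidonic acid, read 8.78 and 8.86 in Cnot3+/- against 8.75 and 8.60 in the wild-type livers. Its groups did not overlap, and the difference was 0.14 (SE 0.14). A second Acsl4 probe set differed by 0.34 (SE 0.14) and an _s_at probe set by -0.01 (SE 0.31).

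The medium-chain synthetases of the Acsm family, which act in the mitochondrial matrix, varied more. Acsm2 read 4.43 and 4.45 in Cnot3+/- against 4.92 and 4.82 in the wild-type livers. Both Cnot3+/- arrays were thus low and close together, and the difference was -0.43 (SE 0.13, 95% interval -0.76 to -0.09, unadjusted p = 0.0216, limma adjusted p = 0.999). It ran from -0.48 to -0.37 with any 1 array left out. These values lie near the array medians and no detection call was used. A second Acsm2 probe set past the filter differed by 0.01 (SE 0.29), at 4.74 and 3.94 in Cnot3+/- against 4.45 and 4.20 in the wild-type livers, so the probe sets of this gene do not show one direction.

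Acsm3 read 9.27 and 8.65 in Cnot3+/- against 9.49 and 9.22 in the wild-type livers, a difference of -0.40 (SE 0.25, limma adjusted p = 0.999). The low value was that of Cnot3+/- 2, and Cnot3+/- 1 lay between the wild-type arrays. The difference was -0.09 without Cnot3+/- 2. Acsm1 read 11.40 and 10.95 in Cnot3+/- against 10.95 and 10.96 in the wild-type livers, with 1 high array, Cnot3+/- 1 (difference 0.22, SE 0.19). It was -0.0034 without that array. Acsm5 differed by 0.17 (SE 0.15).

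Every gene of the carnitine shuttle differed from wild-type by less than its standard error. Cpt1a, the liver form of the outer-membrane transferase and the main control point of mitochondrial oxidation, read 11.18 and 11.29 in Cnot3+/- against 11.21 and 11.14 in the wild-type livers. The difference was 0.06 (SE 0.13), with an interval from -0.28 to 0.40. Its other probe sets, both of the _x_at kind that can match several transcripts, differed by -0.04 (SE 0.25) and -0.09 (SE 0.23). Those 2 probe sets had wider gaps within each genotype, with 9.63 and 9.23 in Cnot3+/- against 9.76 and 9.18 in the wild-type livers on the brighter one. Cpt2, the inner-membrane partner, differed by -0.03 (SE 0.15). Crot, which makes medium-chain carnitine esters in peroxisomes, differed by 0.06 (SE 0.15).

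Crat, which exchanges acetyl groups between CoA and carnitine, read 7.70 and 8.42 in Cnot3+/- against 8.17 and 8.26 in the wild-type livers. The Cnot3+/- mice lay on either side of both wild-type mice. The difference was -0.16 (SE 0.26), and 0.20 without Cnot3+/- 1. The other Crat probe sets differed by -0.13 (SE 0.17) and -0.03 (SE 0.17). None of the 5 shuttle genes among the members had groups that did not overlap, against 31.5% of all genes tested. The carnitine carrier gene Slc25a20, outside the member list, had separated groups. It read 11.26 and 11.34 in Cnot3+/- against 11.52 and 11.35 in the wild-type livers (difference -0.14, SE 0.14).

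The acyl-CoA dehydrogenases, which open each mitochondrial cycle for a given chain length, lay close to wild-type. Acadvl, the very-long-chain enzyme gene, read 11.67 and 11.54 in Cnot3+/- against 11.61 and 11.58 in the wild-type livers (difference 0.0095, SE 0.13). Acadl, for long chains, read 11.20 and 11.21 in Cnot3+/- against 11.23 and 11.22 in the wild-type livers. Its groups did not overlap, though the difference was -0.02 (SE 0.13), the smallest in size among the separated members. Acads, for short chains, differed by 0.03 (SE 0.13). Acadm, the medium-chain gene, read 11.98 and 12.28 in Cnot3+/- against 12.34 and 12.23 in the wild-type livers. Its low value was on Cnot3+/- 1, and the difference was -0.16 (SE 0.16), or -0.0093 without that array.

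Among the less studied dehydrogenases, Acad12 read 6.06 and 5.94 in Cnot3+/- against 5.81 and 5.87 in the wild-type livers, a difference of 0.16 (SE 0.13). Acad10 had probe sets that went opposite ways. On the one used, it read 7.71 and 7.68 in Cnot3+/- against 7.21 and 7.58 in the wild-type livers (difference 0.30, SE 0.17, limma adjusted p = 0.999). On the other, an _x_at probe set, it read 6.76 and 6.44 in Cnot3+/- against 7.05 and 6.79 in the wild-type livers (difference -0.32, SE 0.18). The groups were separated on both, in opposite directions, so the gene has no settled direction. Acad8, Acad9, Acad11 and Acadsb, which act largely outside straight-chain oxidation or have other known roles, differed by between -0.06 and 0.07.

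The later steps of the mitochondrial cycle held 2 of the separated genes. Hadh, the 3-hydroxyacyl-CoA dehydrogenase for short and medium chains, read 11.62 and 11.65 in Cnot3+/- against 11.87 and 11.81 in the wild-type livers. Both Cnot3+/- mice lay below both wild-type mice, and the difference was -0.20 (SE 0.13, interval -0.53 to 0.13, limma adjusted p = 0.999). The 2 further Hadh probe sets, both _x_at, differed by -0.33 (SE 0.15) and -0.18 (SE 0.15), with separated groups on each. On the dimmer of them Hadh read 6.19 and 6.31 in Cnot3+/- against 6.67 and 6.49 in the wild-type livers. On the brighter it read 13.02 and 12.84 in Cnot3+/- against 13.17 and 13.06 in the wild-type livers. All 3 Hadh probe sets thus stood lower in both Cnot3+/- mice without passing the test, and probe sets of a gene measure the same RNA and are not replicates.

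Ech1, which encodes an isomerase needed for some unsaturated chains, read 11.47 and 11.54 in Cnot3+/- against 12.05 and 11.68 in the wild-type livers. The difference was -0.36 (SE 0.17, interval -0.80 to 0.08, limma adjusted p = 0.999). Most of it came with the high value of wild-type 1, since it was -0.17 without that array. The isomerase gene Eci1 differed by -0.12 (SE 0.15) and Decr1, the dienoyl-CoA reductase gene, by -0.03 (SE 0.14). Eci2 lay at 0.08 (SE 0.14).

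The trifunctional protein, which joins hydratase, dehydrogenase and thiolase activity for long chains, is built from Hadha and Hadhb. Hadha read 10.64 and 11.07 in Cnot3+/- against 10.58 and 11.02 in the wild-type livers. It had a high and a low mouse in each genotype, and the difference was 0.05 (SE 0.23). Hadhb read 11.41 and 11.51 in Cnot3+/- against 11.50 and 11.58 in the wild-type livers (difference -0.08, SE 0.13). A dim Hadhb probe set differed by 0.30 (SE 0.26). The hydratase gene Echs1 differed by 0.0058 (SE 0.13) and the thiolase gene Acaa2 by -0.09 (SE 0.13). Over the 19 genes of the mitochondrial cycle, 9 were higher and 10 lower, with a median of -0.02.

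Electrons from the dehydrogenases pass through the electron transfer flavoprotein to the respiratory chain. Its subunit genes Etfa and Etfb differed by -0.13 (SE 0.15) and 0.03 (SE 0.14), and the gene of its membrane dehydrogenase, Etfdh, by -0.03 (SE 0.14). All 3 had overlapping groups.

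Of the 7 peroxisomal genes tested, 6 lay below wild-type and 1 above, with a median of -0.05. With an array left out this median ran from -0.17, without Cnot3+/- 2, to 0.049, without wild-type 1. Ehhadh, the bifunctional hydratase and dehydrogenase and a textbook PPARalpha target, read 12.15 and 12.91 in Cnot3+/- against 12.69 and 12.64 in the wild-type livers. As for Crat, the Cnot3+/- mice lay on either side of the wild-type pair, and the difference was -0.14 (SE 0.27), or 0.24 without Cnot3+/- 1. Acaa1b, a peroxisomal thiolase gene, read 13.76 and 13.92 in Cnot3+/- against 14.04 and 13.99 in the wild-type livers. Its groups were separated with a difference of -0.17 (SE 0.14, interval -0.52 to 0.17). Acaa1a, its near copy, differed by -0.0084 (SE 0.22) on an _x_at probe set, and reads of close copies can mix on these arrays.

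The acyl-CoA oxidase genes open the peroxisomal cycle. Acox3 read 5.37 and 5.30 in Cnot3+/- against 4.95 and 5.15 in the wild-type livers, a difference of 0.29 (SE 0.14, interval -0.07 to 0.65, limma adjusted p = 0.999). Both Cnot3+/- mice were higher on this dim probe set, while a second one differed by -0.11 (SE 0.19). Acox2, which acts on bile acid precursors and branched chains, read 10.46 and 10.31 in Cnot3+/- against 11.05 and 10.33 in the wild-type livers. A single high array, wild-type 1, set its difference of -0.30 (SE 0.26). Decr2 differed by -0.05 (SE 0.16).

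**Figure D4:**
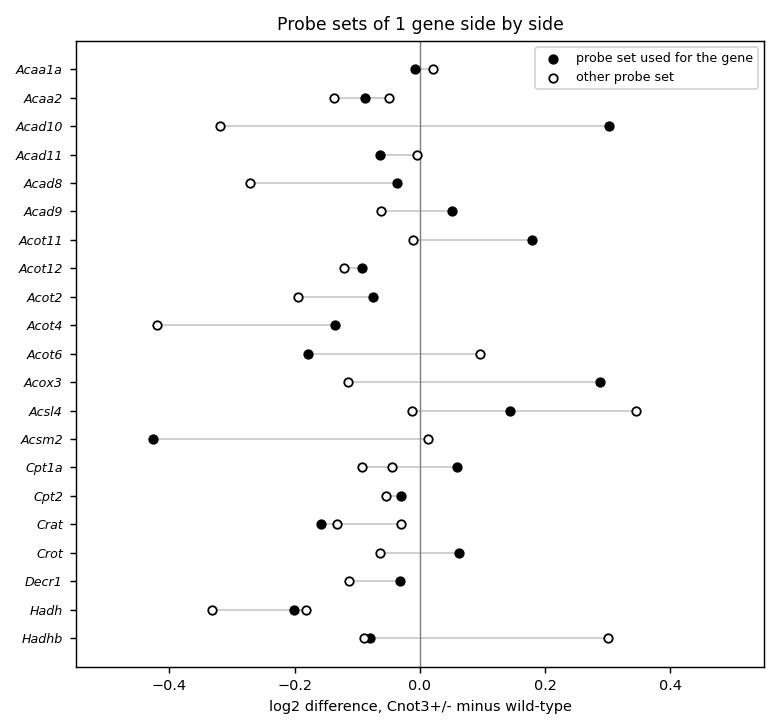
Log2 difference between Cnot3+/- and wild-type on each probe set past the filter, for the 21 member genes with 2 or more of them. Filled points mark the probe set used for the gene; 11 genes have probe sets on both sides of 0, with the widest split for Acad10, while the 3 Hadh probe sets all lie below 0.

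Acyl-CoA thioesterases hydrolyse acyl-CoA to free acid and CoA and thereby set the size of the CoA pool. Of the 11 tested, 9 lay below wild-type and 2 above, with a median of -0.08, and 0 had separated groups, against 31.5% of all genes. The median was 0.067 without Cnot3+/- 1 and -0.15 without Cnot3+/- 2. They held the widest gaps between mice of the same genotype among the members. Acot1, Acot2, Acot3 and Acot4, with Acot5 and Acot6, follow each other on chromosome 12 with no other protein-coding gene between them in the RefSeq gene order. Acot1 encodes a cytosolic enzyme, Acot2 a mitochondrial one and Acot3 and Acot4 peroxisomal ones, and the group is known to respond to fasting through PPARalpha. The promoter windows of Acot1 to Acot4, from 250 bases before to 50 after a RefSeq start on assembly GRCm38.p6, are shown. These genes varied together across the mice. Capitals mark the nuclear receptor half-site AGGTCA, on either strand, and, where it is preceded by GGNCA and 1 further base, the whole of that extended motif, a short form of the direct repeat that PPARalpha and HNF4A are known to bind.
Acot1 (chr12:84009252-84009551, plus strand): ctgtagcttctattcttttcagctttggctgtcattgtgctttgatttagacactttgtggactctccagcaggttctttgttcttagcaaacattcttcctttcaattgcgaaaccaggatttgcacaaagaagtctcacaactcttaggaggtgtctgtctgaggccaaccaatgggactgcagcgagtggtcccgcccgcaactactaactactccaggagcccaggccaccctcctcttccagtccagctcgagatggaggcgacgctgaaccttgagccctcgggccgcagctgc
Acot2 (chr12:83987611-83987910, plus strand): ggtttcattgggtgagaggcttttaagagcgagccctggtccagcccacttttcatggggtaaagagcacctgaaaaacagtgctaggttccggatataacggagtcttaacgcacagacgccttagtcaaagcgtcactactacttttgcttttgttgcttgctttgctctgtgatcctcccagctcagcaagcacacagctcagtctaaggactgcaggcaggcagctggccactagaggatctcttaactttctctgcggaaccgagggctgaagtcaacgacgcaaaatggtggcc
Acot3 (chr12:84051894-84052193, plus strand): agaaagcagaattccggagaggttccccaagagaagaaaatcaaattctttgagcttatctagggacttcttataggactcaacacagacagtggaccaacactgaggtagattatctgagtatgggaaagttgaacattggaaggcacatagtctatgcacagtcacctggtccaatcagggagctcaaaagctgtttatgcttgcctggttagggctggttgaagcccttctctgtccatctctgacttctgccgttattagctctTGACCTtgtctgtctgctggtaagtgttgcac
Acot4 (chr12:84038129-84038428, plus strand): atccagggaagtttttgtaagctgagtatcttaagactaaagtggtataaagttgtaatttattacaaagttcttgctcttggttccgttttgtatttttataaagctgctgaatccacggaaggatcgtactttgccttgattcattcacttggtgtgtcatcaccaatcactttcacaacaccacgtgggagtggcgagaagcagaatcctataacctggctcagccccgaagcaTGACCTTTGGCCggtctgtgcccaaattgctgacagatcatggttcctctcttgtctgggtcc

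The extended motif was found in 1 member promoter, that of Acot4, on the minus strand at bases 238 to 249 of the window. It occurred in 0.207% of all 32851 RefSeq promoter windows of this length, and in 1 of the 61 windows of the 53 member genes that had one. It contains the half-site, so both are marked there. The half-site alone was in 24.6% of the member windows and 16.3% of all windows, and among the windows shown in those of Acot3 and Acot4. The full repeat, AGGTCA on both sides of 1 base, was in 0 member windows and in 0.0396% of all windows. The short form was chosen after the Acot4 window had been read, and a match of letters is not a measured binding site.

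Across the 4 mice Acot1 to Acot4 were low and high together, and in both genotypes each read lower in mouse 1 than in mouse 2. The labels do not say whether mice of the same number were paired. Between mice of the same number, Acot1, Acot3 and Acot4 were lower in Cnot3+/- for both numbers. Acot2 was lower in Cnot3+/- 1 than in wild-type 1 but higher in Cnot3+/- 2 than in wild-type 2. Acot1 read 10.21 and 10.88 in Cnot3+/- against 10.80 and 11.17 in the wild-type livers, a difference of -0.44 (SE 0.27, interval -1.13 to 0.25, limma adjusted p = 0.999). Acot3, read on an _s_at probe set that can match related transcripts, stood at 8.14 and 9.50 in Cnot3+/- against 8.79 and 10.07 in the wild-type livers (difference -0.61, SE 0.60). Acot4 read 7.51 and 8.20 in Cnot3+/- against 7.65 and 8.33 in the wild-type livers (difference -0.13, SE 0.33). For each of these 3 genes the lowest mouse was Cnot3+/- 1 and the highest was wild-type 2. A second Acot4 probe set had the same lowest and highest mice, at 7.02 and 7.79 in Cnot3+/- against 7.53 and 8.12 in the wild-type livers. Their dim neighbour Acot6 did not share this order. It read 4.94 and 4.885 in Cnot3+/- against 5.41 and 4.78 in the wild-type livers, highest on wild-type 1 and lowest on wild-type 2.

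Acot2 spread further within Cnot3+/-. It read 7.47 and 9.40 in Cnot3+/- against 8.40 and 8.62 in the wild-type livers, so the Cnot3+/- mice were 1.93 apart on the log2 scale and lay on either side of the wild-type pair. The difference of -0.08 (SE 0.62) therefore carried a wide interval, from -1.65 to 1.50. It was 0.89 without Cnot3+/- 1 and -1.04 without Cnot3+/- 2. A dim second Acot2 probe set showed the same order, at 4.45 and 5.64 in Cnot3+/- against 4.95 and 5.53 in the wild-type livers. For Acot1 to Acot4 together, the mean relative to wild-type was -0.90 in Cnot3+/- 1 and 0.27 in Cnot3+/- 2, with wild-type 1 at -0.32 and wild-type 2 at 0.32. Without Cnot3+/- 1, Acot1 differed by -0.10, Acot3 by 0.07 and Acot4 by 0.21. These values set Cnot3+/- 2 against the mean of both wild-type mice, of which wild-type 1 was the lower for each gene. Endothelial markers were also low on Cnot3+/- 1. All 6 had a mean below wild-type, and relative to wild-type the list was at -0.85 on Cnot3+/- 1 and 0.01 on Cnot3+/- 2. The drop was not confined to Cnot3+/- 1 for 3 of them, against 17.4% of all genes with separated groups on the low side. Clec4g, Kdr and Stab2 were below both wild-type arrays in both Cnot3+/- mice, while Pecam1, Lyve1 and Cdh5 had overlapping groups. The part of these cells in the thioesterase values was not tested.

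**Figure D5:**
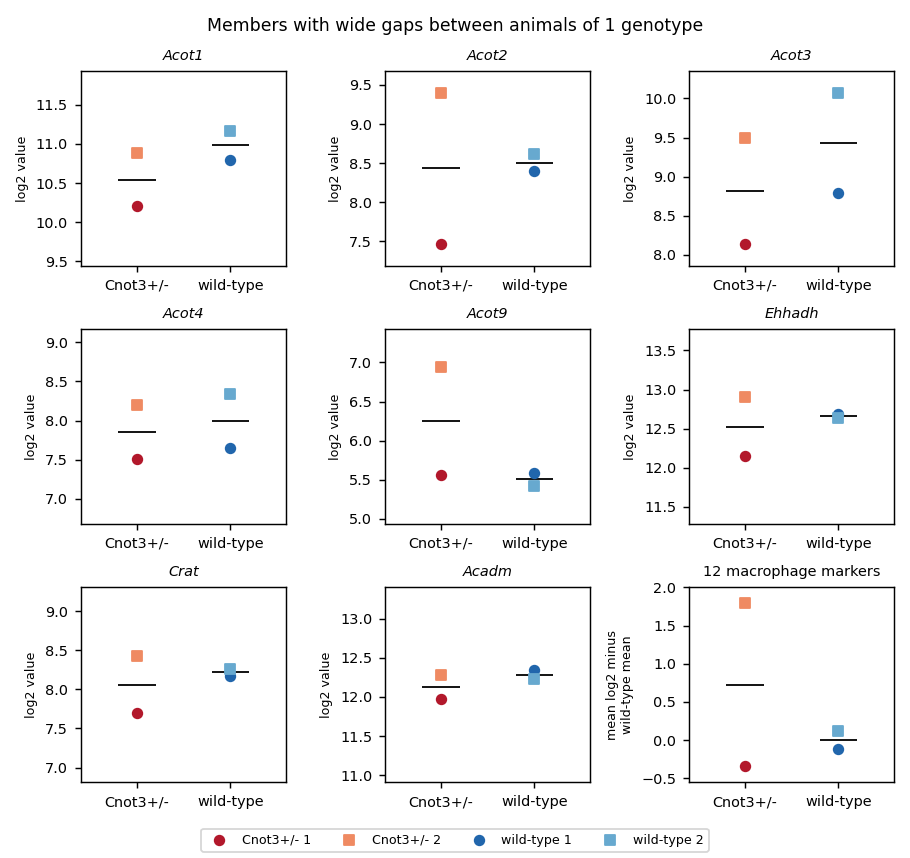
Log2 value on each array for 8 members (Acadm and 7 with gaps over 0.5 between mice of 1 genotype) and the mean of 12 macrophage markers relative to wild-type. Points are arrays and bars are genotype means. Acot1 to Acot4, Ehhadh, Crat and Acadm are low on Cnot3+/- 1; Acot9 and the macrophage markers are high on Cnot3+/- 2.

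Acot9, a mitochondrial thioesterase gene on the X chromosome, went another way. It read 5.56 and 6.94 in Cnot3+/- against 5.59 and 5.42 in the wild-type livers, so 1 mouse, Cnot3+/- 2, stood apart from the other 3. The difference of 0.74 (SE 0.45, interval -0.41 to 1.90, limma adjusted p = 0.999) was the largest among the members. Macrophage markers were high on the same array. All 12 tested had a mean above wild-type, and relative to wild-type the mean of the list was -0.34 on Cnot3+/- 1 but 1.79 on Cnot3+/- 2, and -0.11 and 0.11 on the wild-type arrays. The mean log2 level of the list was 7.72 to 9.86 in Cnot3+/- and 7.95 to 8.17 in wild-type; RMA values have a floor above 0, so absence cannot be read from them. The part of these cells in the Acot9 value was not tested.

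The remaining thioesterases stayed close to wild-type. Acot12, a liver acetyl-CoA hydrolase gene, read 10.22 and 10.01 in Cnot3+/- against 10.24 and 10.17 in the wild-type livers (difference -0.09, SE 0.14). Acot13 read 9.99 and 9.80 in Cnot3+/- against 10.00 and 9.81 in the wild-type livers (difference -0.0090, SE 0.15). Both had overlapping groups. Acot6, Acot7, Acot8 and Acot11 differed by between -0.18 and 0.18. The genes with an enoyl-CoA hydratase domain, Echdc1, Echdc2 and Echdc3, differed by between -0.01 and 0.17.

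Other genes of the pathway, were listed by role and not by how they moved. Of 24 tested regulators and fasting targets, 0 passed the adjusted test in limma, 10 were higher and 14 lower. An unadjusted p under 0.05 was found for 3, against 3.59% of all genes. Groups were separated for 1 on the high side and 6 on the low side, against 14.1% and 17.4% of all genes. Ppara itself averaged 10.96 in Cnot3+/- and 10.91 in wild-type (difference 0.05, SE 0.20). The 3 were the coactivator gene Ppargc1a, higher in both Cnot3+/- mice, and the ketone and pantetheine enzyme genes Acat1 and Vnn1, lower in both. Acat1 read 11.71 and 11.70 in Cnot3+/- against 12.18 and 12.03 in the wild-type livers (difference -0.40, SE 0.13). Vnn1 read 9.71 and 9.93 in Cnot3+/- against 10.31 and 10.26 in the wild-type livers (difference -0.46, SE 0.14). Ppargc1a read 7.29 and 7.04 in Cnot3+/- against 5.63 and 6.44 in the wild-type livers (difference 1.13, SE 0.29).

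Some fasting targets shared the low value of Acot1 to Acot4 on Cnot3+/- 1 and some did not. Plin2, a lipid droplet coat gene, read 12.16 and 13.12 in Cnot3+/- against 12.66 and 12.67 in the wild-type livers. Pex11a, a peroxisome division gene, read 10.92 and 11.60 in Cnot3+/- against 11.23 and 11.51 in the wild-type livers. For both the lowest mouse was Cnot3+/- 1, as it was for 25.0% of all genes tested. Cyp4a14, by contrast, stood at 12.79 and 12.85 in Cnot3+/- against 12.70 and 12.80 in the wild-type livers. These genes were named after their values were seen, and as examples they do not give the share of the list on either side.

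Of 26 further acyl-CoA enzyme and transporter genes tested, 7 were higher and 19 lower (median -0.07), with 0 past the adjusted or the unadjusted threshold. Of these, 7 had separated groups on the low side and 2 on the high side, against 17.4% and 14.1% of all genes. Dbi, the acyl-CoA binding protein gene, read 12.53 and 12.61 in Cnot3+/- against 12.96 and 12.78 in the wild-type livers (difference -0.30, SE 0.14). Hacl1, a peroxisomal lyase gene for branched chains, read 11.55 and 11.43 in Cnot3+/- against 11.88 and 11.72 in the wild-type livers (difference -0.31, SE 0.14). The peroxisomal genes Scp2 and Hsd17b4 differed by -0.07 (SE 0.13) and -0.09 (SE 0.17).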

How the data were processed

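Per the submitters' processing notes, the authors ran RMA on the arrays and deposited the resulting log2 values, with no version stated in these notes. RMA shrinks differences of dim probe sets. The log2 scale was taken from the values. All 4 columns were mapped. Gene symbols came from the platform annotation; probe sets with several symbols (932) or none (9211) were left out, among them 5 that carry a member's symbol with another. The dimmest 40% by mean log2 value (up to 4.06) were left out, and each gene was read on its brightest other probe set, with _x_at or _s_at used only where there was no other (4 members).

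limma 3.58.1 in R 4.3.3 compared Cnot3+/- with wild-type (lmFit and eBayes, two-sided, no covariate, Benjamini-Hochberg over all 13379 genes, or over 27060 probe sets for second probe sets). The fit had 2 residual degrees of freedom and a prior of 3.17. The fit was tested on simulated data. Members and lists were chosen with earlier results of these data known. Genes named with full values are a fixed set of central enzymes, the 8 separated members of largest difference, members at an unadjusted p under 0.05 and members whose probe sets disagree in sign by over 0.5; Acox2, Acot9, the genes outside the member list and others given in ranges were named after their values were seen. Other filters, probe set rules, scalings, variance models, a block and leaving out each array were tried.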

Additional observations from a re-analysis of the deposited data

How the results depend on the processing

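No member passed the adjusted threshold under any of the 13 alternatives run, and the median difference of the members, -0.03, moved by less than the spread between arrays in all of them. The count of members at an unadjusted p under 0.05, 1 in the report, was 0 when the dimmest 60% were dropped (3.20% of all genes) or the probe sets of a gene averaged (3.84%), 2 without moderated variances (4.55%), and 1 to 5 with an array left out (1.48% to 7.40%). Over all genes 2 passed; this was 1 without moderation and 0 to 38 with an array left out, and the 2 probe sets that passed became 0 with any array left out. The labels number the replicates alike in both genotypes and do not say whether mice of the same number were paired. With the replicate block 0 genes, 0 probe sets and 3 members at an unadjusted p under 0.05 were found, the last against 4.48% of all genes. The gaps between mice 1 and 2 of each genotype correlated at 0.16 over all genes and 0.52 over the members.

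With an array left out the median difference of all members ran from -0.042 to 0.0023, and it was above 0 without wild-type 1. The median of every role group but the mitochondrial cycle changed sign with some array left out. That of the peroxisomal genes was -0.14 when the dimmest 60% were dropped. Single differences also turned sign. Averaging probe sets gave -0.026 for Cpt1a, -0.0004 for Crot, 0.044 for Hadhb, 0.0061 for Acaa1a and -0.0083 for Acad10. Quantile normalization gave -0.0145 for Acsl3 and -0.0001 for Acadvl, and centring on array medians gave 0.0040 for Acaa1a and 0.0033 for Acot13. With any 1 array left out the differences ran from -0.16 to 0.10 for Cpt2, -0.52 to 0.20 for Crat, -0.052 to 0.18 for Crot, -0.19 to 0.11 for Slc27a2, -0.12 to 0.15 for Acsl3, -0.0056 to 0.10 for Acsl5, -0.0034 to 0.45 for Acsm1, -0.013 to 0.082 for Acads, -0.056 to 0.075 for Acadvl, -0.17 to 0.27 for Hadha, -0.031 to 0.042 for Echs1, -0.12 to 0.056 for Decr1, -0.054 to 0.12 for Etfb, -0.13 to 0.076 for Etfdh, -0.51 to 0.24 for Ehhadh, -0.24 to 0.23 for Acaa1a, -1.04 to 0.89 for Acot2, -1.29 to 0.067 for Acot3, -0.48 to 0.21 for Acot4, -0.20 to 0.012 for Acot12 and -0.11 to 0.090 for Acot13. With 1 array in a group, its spread is assumed to be that of the other group. The causes were not tested. The 2 arrays a genotype, and the missing detection calls for dim probe sets such as those of Acsm2 and Acox3, limit all of these values.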
